A study of Arabidopsis thaliana with 4 samples.

Results

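The WRKY genes of groups I and II encode transcription factors of Arabidopsis, and their transcripts were compared between plants exposed to the volatiles of the bacterium Pseudomonas syringae DC3000 and unexposed plants. The 55 genes were taken by locus identifier, with no use of measured values, from the 29030 loci on the arrays. They are commonly classified into group I (14 genes) and the subgroups IIa (3), IIb (8), IIc (16), IId (7) and IIe (7). All 55 were on the arrays, read by 75 probes, and 53 gave enough signal to be tested. WRKY34, a pollen factor of group I, and WRKY59 of subgroup IIc were well above background on only 1 of the 4 arrays, array 4, and were not tested. The gene table of the TAIR10.1 assembly names each of the 55 loci as the WRKY gene given here, with WRKY1 under its older symbol ZAP1 and WRKY44 under TTG2.

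WRKY proteins bind the W box, a short DNA element in the promoters of many defence genes and of the WRKY genes themselves. As a rule, though not in every member, group I proteins carry a pair of WRKY domains and group II proteins 1 domain, each with a zinc finger. In immunity, perception of bacterial molecules activates MAP kinases that phosphorylate members such as WRKY33, and several genes of the family are themselves switched on within the first hours. Members act in both directions: WRKY22 and WRKY29 promote responses to flagellin, while WRKY18 and WRKY40, or WRKY11 and WRKY17, restrain defence against P. syringae.

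All plants were wild type of the ecotype Col-0, the standard laboratory line. The series design gives 8 days of growth on agar and 12 hours of exposure, whereas the sample labels give 12 days. Exposed plants grew above the bacteria in a shared headspace, and control plates held none. Each of the 4 samples is a two-colour array. Cy3, read in green, labelled the control RNA, and Cy5, read in red, labelled the exposed RNA. Every log2 ratio below is therefore exposed over control, normalized within its array. A positive value means more signal in exposed plants after normalization, and its sign can differ from that of the unnormalized signals. The dyes were never swapped, so that a preference of a probe for 1 dye cannot be told apart from an effect of exposure. Nothing in the labels says that the arrays hold separate batches of plants, so the p-values reflect array-to-array spread that may be purely technical.

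Array 4 stood apart before any gene was considered. Its median gene spot read 575.5 scanner units in Cy3 and 1286 in Cy5, against 292 to 362.5 and 336 to 373 on arrays 1 to 3. Across the 53 tested WRKY genes, which share the arrays and are not independent, Pearson's r between pairs of arrays 1 to 3 was 0.614 to 0.725. Between array 4 and each of them it was 0.276 to 0.33. The file headers place arrays 1 and 2 on 1 slide and arrays 3 and 4 on another, so array 4 shared a slide with array 3, which was like arrays 1 and 2.

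With all 4 arrays, 1 of the 53 tested members passed the test, WRKY50, and it rose. That is 1.89% of the members, where 3.4% of all 22690 tested genes were called (1.58% higher and 1.82% lower), so the members' share of calls was not above that of the arrays as a whole. The test is limma's moderated test of the log2 ratio against 0, two-sided, adjusted by Benjamini-Hochberg across the 22690 genes, with a threshold of 0.05. Over all genes 358 were higher and 414 lower, a split that became 166 and 50 with median centring in place of loess and 657 and 488 with plain background subtraction. The other 52 members were not called. At an unadjusted p below 0.05, 15 members were higher and 3 lower, 18 of 53, while 24.8% of all genes had such a p (11.4% on the higher side). In whole plants, fewer cells that express a gene and less transcript per cell cannot be told apart.

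WRKY50 (AT5G26170) is a subgroup IIc factor whose transcript accumulates with salicylic acid and which, with its relative WRKY51, mediates the repression of jasmonate responses by salicylic acid. Its spot read 128.5, 119, 116 and 801.5 scanner units in the control channel of arrays 1 to 4 and 211, 202.5, 200 and 3743 in the exposed channel. The unnormalized exposed signal was the higher on every array, and on array 4 both channels were far brighter than elsewhere. The median gene spot was also brighter in Cy5 on each array, at 1286 against 575.5 on array 4. After normalization the log2 ratios were 0.71, 0.69, 0.87 and 1.44. The fitted ratio was 0.93 ± 0.13 (SE, n = 4), or 1.91-fold, with an adjusted p of 0.0301 in limma. Without array 4 it was 0.76, with an adjusted p of 1.5e-07 in limma. A second probe of WRKY50 gave 0.84, 0.63, 0.77 and 0.94, all higher in exposed plants.

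The call of WRKY50 needed each of arrays 1 to 3. Leaving out array 1, 2 or 3 kept the ratio between 0.95 and 1.01 but raised the limma adjusted p to 0.165, 0.173 and 0.239. In those 3 fits limma called 0 of all 22690 genes, and the genes with an unadjusted p under 0.05 numbered 3580, 3873 and 3494.

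**Figure D1:**
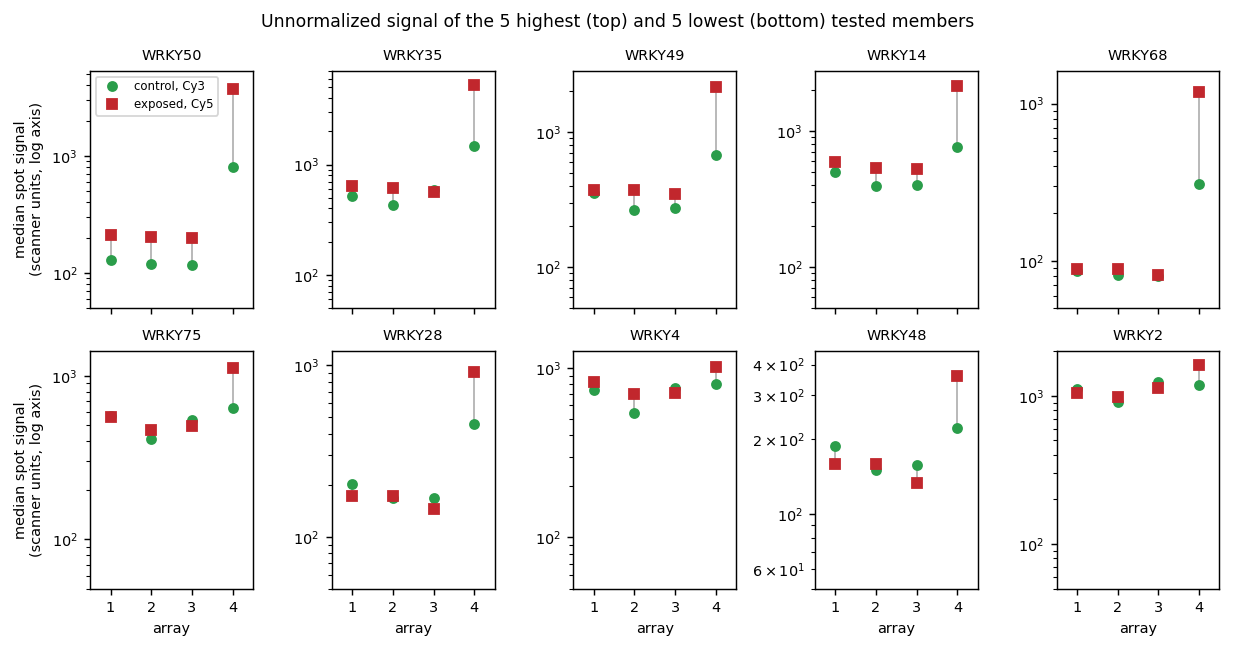
Median spot signal before normalization in scanner units (log axis, each panel with its own range) in the control (Cy3, circles) and exposed (Cy5, squares) channel of each array, for the 5 tested members with the highest fitted log2 ratio (top row) and the 5 with the lowest (bottom row). WRKY50 is higher in the exposed channel on all 4 arrays, and its signal on array 4 is brighter than on the others in both channels. On array 4 the exposed channel is the brighter for every gene shown and for the median gene spot.

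On each of arrays 1 to 3 most of the 53 members lay above 0, 40, 41 and 35 of them, with medians of 0.15, 0.14 and 0.073. On array 4 it was 24 of 53, with a median of -0.019. The members' shares above 0 were 75.5% on array 1 and 45.3% on array 4, beside 51.7% and 41.7% of all genes. Of the 22690 tested genes, 11765 lay above 0 on array 2 and 11677 on array 3. The medians over all tested genes were -0.068 on array 4 and between 0.0069 and 0.0081 on the other arrays. Over all 4 arrays the members had a median fitted ratio of 0.088, against -0.0046 for all genes. The normalized ratio was above 0 on all of arrays 1 to 3 in 29 members, beside 30.8% of all genes. It was below 0 on all of them in 7, beside 27.9%. With array 4 included, 15 members were higher on all 4 arrays and 6 lower, beside 17.2% and 20.7% of all genes. The sizes were small: apart from WRKY50, every fitted ratio lay between -0.25 and 0.39.

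**Figure D2:**
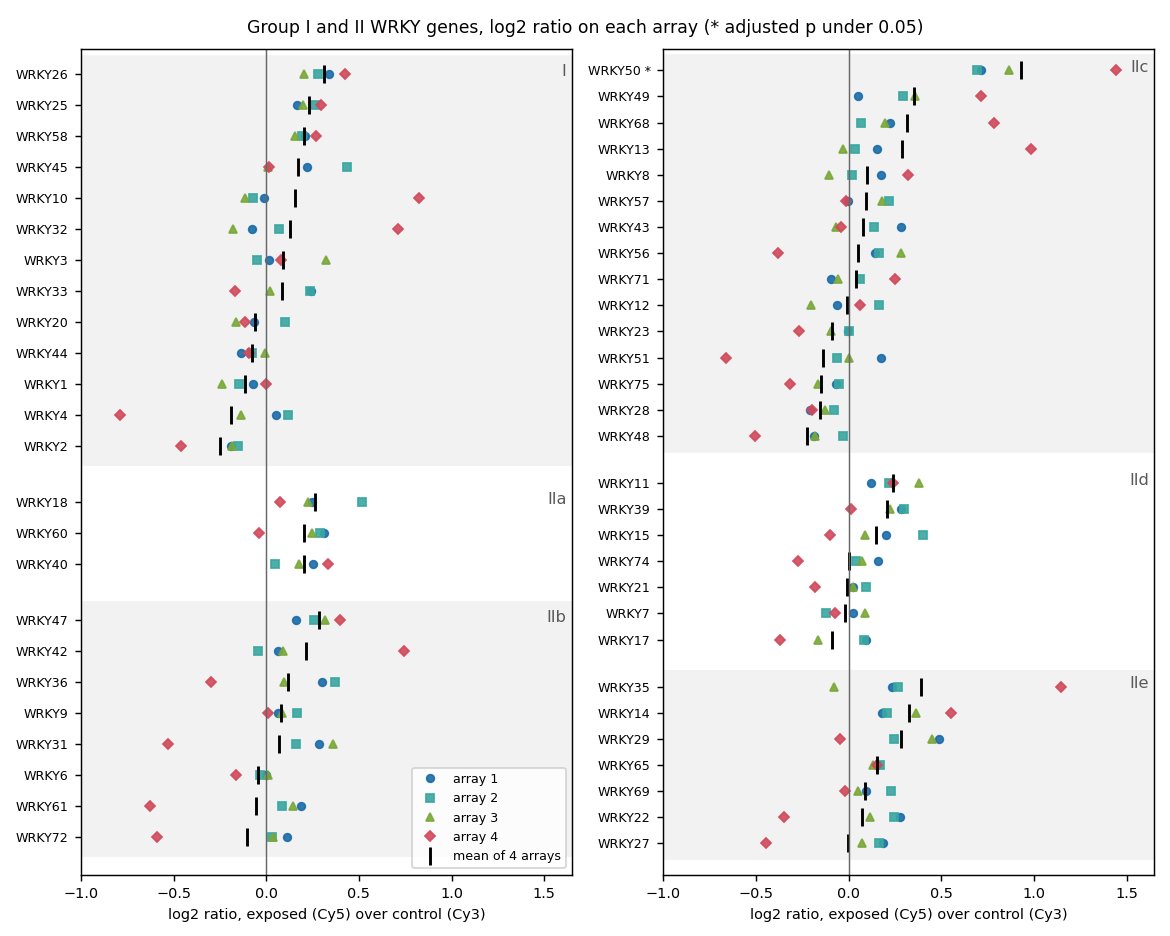
Log2 ratio of exposed (Cy5) over control (Cy3) signal for each of the 53 tested genes, by group and subgroup. Symbols are the 4 arrays and the black bar is their mean; the star marks the gene with an adjusted p under 0.05. Most symbols of arrays 1 to 3 lie to the right of 0, and the diamonds of array 4 often lie far from the other 3.

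Of the 13 tested group I genes, 4 were higher and 3 lower on all 4 arrays, beside 17.2% and 20.7% of all genes. None of the 13 was called. WRKY26 (AT5G07100) came closest. Its log2 ratios were 0.34, 0.28, 0.21 and 0.42, the fitted value was 0.31 ± 0.065 (SE, n = 4), and the adjusted p was 0.0581 in limma. WRKY25 (AT2G30250), which acts with WRKY26 and WRKY33 in heat tolerance, read 0.17, 0.26, 0.20 and 0.29 (fitted 0.23, adjusted p = 0.0873 in limma). WRKY58 (AT3G01080), described as a repressor of systemic acquired resistance downstream of NPR1, read 0.21, 0.19, 0.15 and 0.27. These 3 genes kept to 1 side of 0 on every array and varied little between arrays. WRKY58 was dim, at 90.5 to 98 scanner units in Cy3 on arrays 1 to 3. The offset used in background correction draws such ratios toward 0. With plain background subtraction the fitted ratio of WRKY58 was 0.42 in place of 0.21.

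WRKY33 (AT2G38470), the factor that drives camalexin synthesis and is phosphorylated by MPK3 and MPK6, read 0.24 and 0.24 on arrays 1 and 2. On array 3 it was at 0.022 and on array 4 at -0.17. The means by slide were 0.24 and -0.074, the second taken with array 4, and a difference between slides was not tested. WRKY45 (AT3G01970), which promotes phosphate uptake, read 0.22 and 0.43 on arrays 1 and 2 but 0.0080 and 0.014 on arrays 3 and 4. WRKY2 (AT5G56270), which acts in seed germination and in the zygote, had the lowest fitted ratio of all members. It read -0.19, -0.16, -0.19 and -0.46 (fitted -0.25 ± 0.075 SE, n = 4, adjusted p = 0.113 in limma), below 0 on every array. WRKY1 and WRKY44, the latter a regulator of trichomes and seed coat colour, were also below 0 on all 4 arrays, at -0.11 and -0.079.

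WRKY4 (AT1G13960), which with WRKY3 acts in resistance to fungi that kill tissue, read 0.051, 0.12, -0.14 and -0.79. Its mean of -0.19 came from array 4, and without that array it was 0.011. WRKY3 was at 0.090. WRKY10 (AT1G55600), a factor of the seed endosperm also called MINI3, was above background in Cy3 on 1 array only and read between -0.12 and -0.011 on arrays 1 to 3 and 0.82 on array 4. WRKY32 read 0.71 on array 4 against -0.18 to 0.068 on the other arrays, and WRKY20 was at -0.063.

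The 3 genes of subgroup IIa are pathogen-induced and partly redundant, and all 3 had positive fitted ratios with none called. WRKY18 (AT4G31800) read 0.25, 0.51, 0.22 and 0.073 (fitted 0.26, adjusted p = 0.125 in limma). WRKY60 (AT2G25000) read 0.31, 0.29, 0.25 and -0.041, and WRKY40 (AT1G80840) read 0.25, 0.044, 0.18 and 0.33. The 3 genes were each above 0 on all of arrays 1 to 3, beside 30.8% of all genes. A positive fitted ratio was found for 49.0% of all genes. The second probe of WRKY40 read 0.21, 0.21, 0.034 and -0.46. Both probes of WRKY18 were higher in exposed plants on all 4 arrays, and with the mean of the 2 probes WRKY18 was called.

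Of the 8 genes of subgroup IIb, 6 were higher on each of arrays 1 to 3 and none was lower on all of them. Over all genes, 30.8% were higher on those arrays and 27.9% lower. The subgroup median was then -0.23 on array 4. WRKY47 (AT4G01720) was higher on every array, at 0.16, 0.26, 0.32 and 0.40 (fitted 0.28 ± 0.067 SE, n = 4, adjusted p = 0.0715 in limma). Its second probe did not keep to this, at 0.070, -0.045, 0.087 and -0.58. WRKY31 (AT4G22070) read 0.28, 0.16 and 0.36 on arrays 1 to 3 and -0.53 on array 4. WRKY36 (AT1G69810), a partner of the ultraviolet-B receptor UVR8 that represses HY5, read 0.30, 0.37, 0.095 and -0.30. Both thus turned sign on array 4. WRKY61 and WRKY72, the latter a factor of basal defence, did the same from smaller values, at -0.63 and -0.59 on array 4 against 0.031 to 0.19 on the others. WRKY6 and WRKY42, which repress the phosphate exporter gene PHO1, were at -0.047 and 0.21, the second through 0.74 on array 4. WRKY9 was at 0.080.

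In subgroup IIc, 3 of 15 tested genes were higher and 3 lower on all 4 arrays, beside 17.2% and 20.7% of all genes. Besides WRKY50 the highest were WRKY49 and WRKY68. WRKY49 (AT5G43290) read 0.051, 0.29, 0.36 and 0.72 (fitted 0.35, adjusted p = 0.117 in limma), higher in exposed plants on each array. WRKY68 (AT3G62340) read 0.23, 0.064, 0.19 and 0.78 (fitted 0.32, adjusted p = 0.177 in limma). Its control signal was well above background on array 4 only, at 307 scanner units against 80 to 86.5 on the others, so its ratio on arrays 1 to 3 is less certain. WRKY13 (AT4G39410), a factor of stem lignin and flowering time, read -0.029 to 0.15 on arrays 1 to 3 and 0.98 on array 4.

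WRKY51 (AT5G64810), the relative of WRKY50, did not follow it. It read 0.18, -0.063, 0.000057 and -0.66, with a fitted ratio of -0.14. The 3 genes below 0 on every array were WRKY28, WRKY48 and WRKY75. WRKY48 (AT5G49520), a negative regulator of resistance to P. syringae, read -0.19, -0.030, -0.18 and -0.51 (fitted -0.23, adjusted p = 0.183 in limma). WRKY28 (AT4G18170), reported to activate the salicylic acid synthesis gene ICS1, read -0.21, -0.082, -0.13 and -0.20. Its 2 probes were both negative on all 4 arrays. WRKY75 (AT5G13080), a factor of phosphate starvation and leaf senescence, read -0.070, -0.050, -0.16 and -0.32. The remaining tested genes of the subgroup, WRKY8, WRKY12, WRKY23, WRKY43, WRKY56, WRKY57 and WRKY71, had fitted ratios between -0.091 and 0.10 by their brightest probe. The second probe of WRKY57 read higher, at 0.49, 0.38, 0.14 and 0.36. With the mean of its 2 probes WRKY57 was at 0.22 and was not called.

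Subgroup IId proteins bind calmodulin. Of its 7 genes 5 were higher on each of arrays 1 to 3, beside 30.8% of all genes, and none was called. WRKY11 (AT4G31550) read 0.12, 0.22, 0.38 and 0.24 (fitted 0.24 ± 0.068 SE, n = 4, adjusted p = 0.0987 in limma). The second probe of WRKY11 read 0.12, 0.29, -0.012 and -0.53. WRKY17 (AT2G24570), which restrains resistance to P. syringae together with WRKY11, read 0.096, 0.083, -0.16 and -0.37, with no common direction. Its second probe read 0.41, 0.25, 0.34 and -0.45. WRKY39, which acts in heat responses, read 0.28, 0.30, 0.22 and 0.013. Its second probe read 0.14, -0.059, 0.25 and -0.54. WRKY15, a factor of leaf growth and salt stress, read 0.20, 0.40, 0.090 and -0.10. WRKY7, WRKY21 and WRKY74 lay between -0.022 and -0.00074.

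In subgroup IIe, 6 of 7 genes were higher on each of arrays 1 to 3, beside 30.8% of all genes, and none was called. WRKY29 and WRKY22 act downstream of flagellin perception. WRKY29 (AT4G23550) read 0.48, 0.24, 0.45 and -0.047 and WRKY22 (AT4G01250) read 0.28, 0.25, 0.11 and -0.35, both above 0 on arrays 1 to 3 and below it on array 4. WRKY14 (AT1G30650) was higher on every array, at 0.18, 0.21, 0.36 and 0.55 (fitted 0.32 ± 0.082 SE, n = 4, adjusted p = 0.0803 in limma). WRKY65 (AT1G29280) was the steadiest, at 0.15, 0.17, 0.13 and 0.15, and its fitted ratio of 0.15 had an adjusted p of 0.171 in limma. WRKY35 (AT2G34830) had the second-highest fitted ratio, 0.39 ± 0.19 (SE, n = 4), from 0.23, 0.26, -0.079 and 1.15, so that without array 4 it was 0.14. WRKY27, which affects wilting caused by Ralstonia, and WRKY69 were at -0.0059 and 0.088.

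How many members were called turned on array 4. Without it limma called 20 of 53, or 37.7%, with 19 higher and WRKY2 lower, while 31.1% of all genes were called (16.8% higher and 14.3% lower). The 20 were WRKY2, WRKY25, WRKY26, WRKY45 and WRKY58 of group I, WRKY18 and WRKY60 of IIa, WRKY31, WRKY36 and WRKY47 of IIb, WRKY49, WRKY50, WRKY56 and WRKY68 of IIc, WRKY11, WRKY15 and WRKY39 of IId, and WRKY14, WRKY22 and WRKY29 of IIe. The control signal of WRKY68 was not well above background on any of arrays 1 to 3, so that its call there came through the exposed channel. WRKY56 was called as higher by its brightest probe, while its second probe read -0.13, -0.20 and -0.21 on arrays 1 to 3. Among the 51 tested members well above background in both channels on all 4 arrays, 19 were called without array 4, 18 of them higher. Apart from WRKY50 the ratios of the 20 were at most 0.39 in size, that of WRKY29 (adjusted p = 0.00021 in limma without array 4). Other ways of fitting gave other counts. The members called were 3 of 53 with plain background subtraction (5.05% of all genes), 2 with the mean of a gene's probes (3.11%) and 4 with the log ratio that the scanner software gives (4.89%). Array weights called 27 members (36.5% of all genes) and the arrays of slide 1 alone 25 (35%). WRKY50 was the 1 member called with median centring (0.952%), with no filter on dim probes (1.01%), with a strict filter (4.17%) and with slide as a random block (3.28%).

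Of the 20 called without array 4, 13 had the same sign on array 4 itself and 7 the other. The same count was not made over all genes called in that fit, so the 13 have no baseline. On array 4, 41.7% of all tested genes lay above 0.

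Array 4 lay more than 0.5 from the mean of arrays 1 to 3 for 16 of 53 members (30.2%), 7 upward and 9 downward, and for 19.7% of all genes. The upward ones included WRKY50, and for the others, WRKY10, WRKY13, WRKY32, WRKY35, WRKY42 and WRKY68, the mean of arrays 1 to 3 was at most 0.16.

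**Figure D3:**
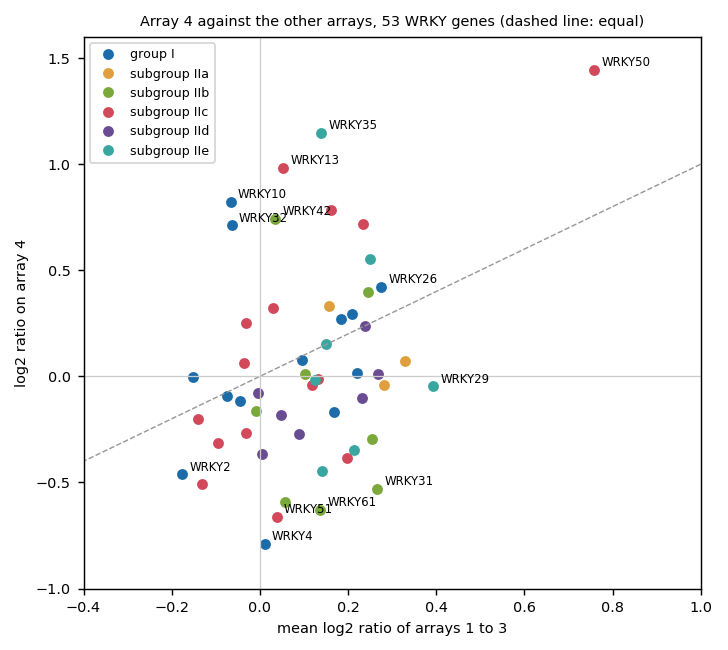
Log2 ratio on array 4 (vertical) against the mean log2 ratio of arrays 1 to 3 (horizontal) for the 53 tested genes, coloured by group. The dashed line marks equal values. WRKY50 is high on both axes, while WRKY35, WRKY13 and WRKY10 are high on array 4 only and WRKY4, WRKY61 and WRKY31 are low there.

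Several probes allow a check within the same arrays. Besides the probe used, 17 members had at least 1 further tested probe, 18 in all. The mean of arrays 1 to 3 had the same sign in both probes for 16 of the 18, the exceptions being WRKY56 and WRKY72. With array 4 included in the mean it was 10 of 18. On array 4 alone 9 of 18 had the same sign, and the probes of a gene differed by a median of 0.49, against 0.098, 0.14 and 0.16 on arrays 1, 2 and 3. The second probe of WRKY35 read 0.30 on array 4, where the first read 1.15. For WRKY40 the 2 probes read 0.33 and -0.46 there, and for WRKY72 -0.59 and 0.55. WRKY32 was the contrary case, with 0.71 and 0.76. Probes of 1 gene may also read different transcripts of it, which was not tested.

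**Figure D4:**
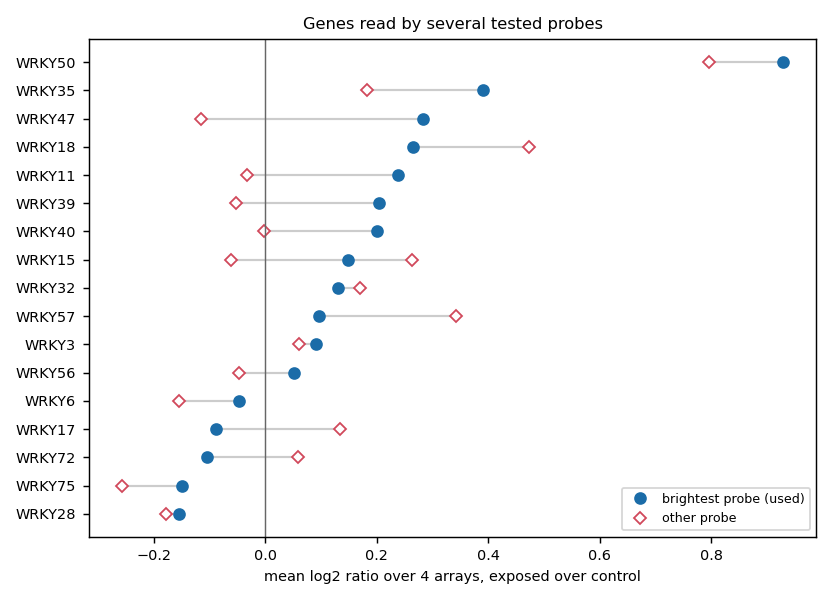
Mean log2 ratio over the 4 arrays for the 17 genes with several tested probes, with the brightest probe, used in the tests, as filled circles and the other probes as open diamonds. Both probes of WRKY50 lie above 0.79, while 8 of the 18 pairs, among them those of WRKY47, WRKY11 and WRKY72, lie on opposite sides of 0.

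**Figure D5:**
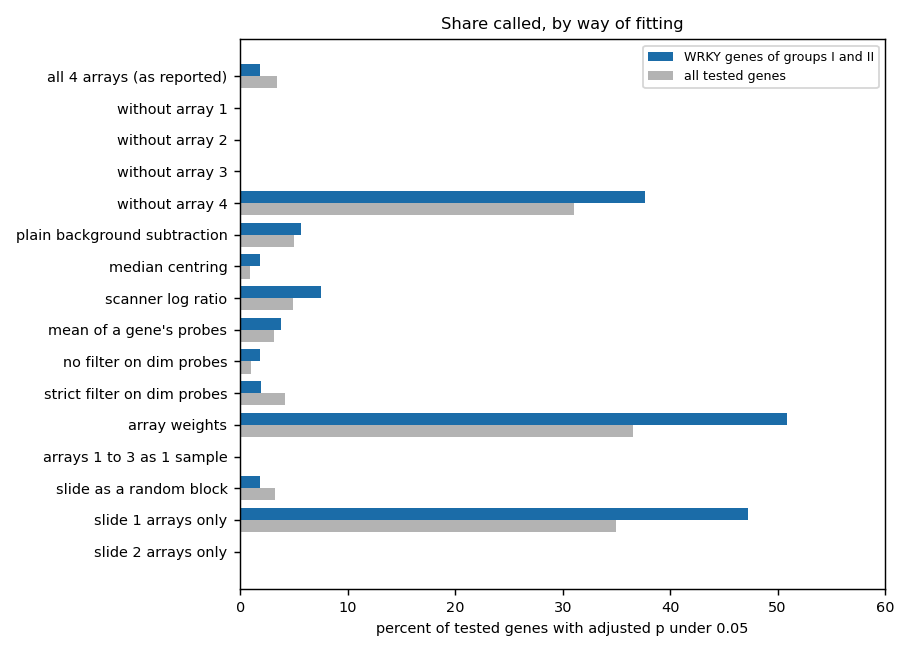
Percent of tested genes with an adjusted p under 0.05 among the WRKY genes of groups I and II (blue) and among all tested genes (grey) for each way of fitting. The members' share is 1.89% with all 4 arrays and 37.7% without array 4, and in both cases the share over all genes, 3.4% and 31.1%, moves the same way.

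The genes most like these are the 13 WRKY genes of group III, of which 10 were tested. WRKY62 (AT5G01900), a negative regulator of basal defence, was called and rose (log2 ratio 0.31 ± 0.060 SE, n = 4, adjusted p = 0.0474 in limma). The group III median was 0.14, beside 0.088 for groups I and II, and without array 4 it was 0.21 beside 0.12. Of the tested group III genes 6 were called without array 4 (60%), all higher. Over all genes 31.1% were called in that fit, 16.8% higher. No difference between the groups was tested.

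Proteins with a VQ motif bind WRKY proteins of groups I and IIc. Of the 13 VQ genes that the gene table names, 12 were tested and none was called. At an unadjusted p below 0.05 in limma there were 4, beside 24.8% of all genes. One of the 4, MVQ2, had a control signal that was not well above background on any array and passed the filter through the exposed channel, so no size is given for it. CAMBP25, which binds calmodulin, was at 0.27 (adjusted p = 0.0859 in limma). The median was -0.031, and 0.042 without array 4. MKS1, which tethers WRKY33 to MPK4, was at 0.015, and the WRKY33 activators SIB1 and SIB2 were at -0.32 and 0.14. On array 4 SIB1 read -0.82 and SIB2 -0.46, and without that array their fitted ratios were -0.15 and 0.34.

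None of 13 MAP kinase cascade genes was called in limma, and 1 had an unadjusted p below 0.05, beside 24.8% of all genes. The 1 gene was MAPKKK5, an upstream kinase of the MPK3 and MPK6 branch, at -0.22 (adjusted p = 0.102 in limma). MPK11, a relative of MPK4, had the next lowest p and read 0.24, 0.34, 0.37 and -0.12, so array 4 alone was below 0 (adjusted p = 0.234 in limma). The list median was 0.0070, and 0.044 without array 4.

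Of 15 genes reported as direct targets of members, 14 were tested and none was called. An unadjusted p below 0.05 in limma was found for 5, beside 24.8% of all genes. JAZ8, a jasmonate repressor reported as a target of WRKY40, read -0.20, -0.23, -0.24 and -0.28 (fitted -0.24, adjusted p = 0.0781 in limma). Only 2 arrays had its exposed signal well above background and 3 its control signal, so it passed the filter through the control channel and its ratios are uncertain. NCED3, the abscisic acid synthesis gene that WRKY33 represses, was below 0 on all 4 arrays, at -0.43 to -0.19. The list median was 0.033, and -0.12 without array 4. The WRKY33 targets of camalexin synthesis, PAD3, CYP71A12 and CYP71A13, read between -0.74 and -0.27 on arrays 1 to 3, where WRKY33 itself read between 0.022 and 0.24, and on array 4 they read between 0.21 and 0.40, where WRKY33 read -0.17. FRK1, a target of WRKY22 and WRKY29, was above 0 on all 4 arrays, at 0.063 to 0.26.

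Markers of root and shoot were both measured. Of 8 root markers 2 were called higher, PYK10 (0.61) and PRP3 (0.44), none was called lower, and the median on the arrays lay between 0.19 and 0.23. The fitted ratio was positive in 6 of them and negative in 2, SCR (-0.073) and NRT2:1 (-0.044). Over all tested genes 1.58% were called higher and 1.82% lower. Of 8 shoot markers 3 rose, among them RBCS1A (0.49) and CAB1 (0.50), the third being PSBO1 (0.49 from 3 arrays, its spot on array 1 being an outlier), and 2 fell, AS1 (-0.49) and GLDP1 (-0.42), with array medians between -0.051 and 0.25. PYK10, RBCS1A, CAB1 and PSBO1 were the brightest of these markers, with mean log2 intensities of 17.47 to 17.81. An effect of brightness on their ratios was not tested. The part of the root and shoot markers in the rise of WRKY50 was not tested either.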

How the data were processed

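The 4 two-colour arrays were deposited as Agilent Feature Extraction files of spot intensity, version 11.5.1.1 per the file headers and 8.5.1.1 per the submitters' processing notes. Median spot intensity was corrected for the deposited median local background with limma's normexp (offset 50) and normalized by loess within each array, with control spots and outlier spots (19, 19, 13 and 142 gene spots) at weight 0 and left out. The offset draws ratios of dim spots toward 0. The scanner software's log10 ratio, as deposited by the authors, was turned into log2 as an alternative. In the series matrix, the labels describe a log2 ratio of exposed over control, and the deposited log2 columns have medians of -0.042, -3.17, -3.17 and -3.19. Within 0.001, the first equals log2 of Cy5 over Cy3 signal at 45220 of 45220 spots, and the others equal log2 of the Cy3 error over the Cy5 signal at 45219, 45220 and 45220. No sign of centring appeared, and no result rests on these columns.

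A probe was tested when well above background in 1 channel on at least 3 arrays. Array 4 met this at almost every spot (97.2% in Cy3 and 99.6% in Cy5), so the filter rested mostly on arrays 1 to 3. Of the tested members, 51 were well above background in both channels on all 4 arrays. A gene was read by its brightest tested probe. The ratios were tested against 0 with lmFit and eBayes (R 4.3.3, limma 3.58.1), and the script was tested on simulated data. The number of arrays limits the precision. Members, lists and tests were chosen with earlier results of these data known. By rule, values per array are given for each called member and for the 5 highest and 5 lowest tested members. Other members' values are given for description. In the other lists the called genes, or else the 2 with the lowest p, were named by rule, and further genes named there were chosen after their values were seen. Of 30 loci first listed as VQ genes, 17 that the gene table does not name were left out, and 1 of these was called. Motifs were not analysed here.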

Additional observations from a re-analysis of the deposited data

Results flagged for a closer look

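In 4 of the 53 tested members 1 array lay far from the other 3 by Dixon's criterion, and in each it was array 4. For WRKY61 array 4 read -0.63 where arrays 1 to 3 read 0.083 to 0.19. For WRKY72 it read -0.59 against 0.031 to 0.11. For WRKY2 it read -0.46 against -0.19 to -0.16, on the same side of 0. For WRKY10 it read 0.82 against -0.12 to -0.011. Chance flags about 1 in 20 groups.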

How the results depend on the processing

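The count of called members, 1 with all arrays, ranged from 0 to 20 when single arrays were left out, and that over all genes, 772, from 0 to 7054. The other counts of members were 3 with plain background subtraction, 4 with the scanner software's log ratio, 2 with the mean of a gene's probes, 27 with array weights, 0 with arrays 1 to 3 as 1 sample (3 members and 1317 genes at an unadjusted p below 0.05 in limma), 25 with the arrays of slide 1 alone and 0 with those of slide 2 alone (4 and 1999). Over all genes the counts were 216 with median centring, 292 with no filter on dim probes, 8275 with array weights, 0 with arrays 1 to 3 as 1 sample, 7943 with slide 1 alone and 0 with slide 2 alone. Array weights gave array 4 a weight of 0.155 against 0.902 to 3.03 for the others. With single arrays left out, 0 to 6 group III, 0 to 4 VQ, 0 to 2 MAP kinase and 0 to 9 target genes were called. WRKY27 went from -0.0059 to 0.15 with array weights and 0.17 on slide 1 alone, called in both. The causes were not tested.

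WRKY50 lay between 0.70 and 1.26 in every fit and was called in all but those without array 1, 2 or 3, with arrays 1 to 3 as 1 sample and with slide 2 alone. The members' median was above 0 in every fit, from 0.011 to 0.14. Slide as a random block left 1 member and 745 genes called. The slide fits were chosen after seeing the data. No paired analysis was possible because the arrays form 1 group and each already holds both conditions. Array 4 and signal near background limit the dim members WRKY10 and WRKY68. WRKY58 and WRKY71 were of similar brightness.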
